A study of Homo sapiens with 2 samples.

Results

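Classical cadherins and their catenins were followed as 7 genes, CDH1, CDH2, CDH3, CDH5, CTNNA1, CTNNB1 and CTNND1, of 58051 annotated genes. They were chosen by name, with earlier results of these data known, and each was found once by its gene ID. RNA was sequenced from untreated BEAS-2B cells, an immortalised human bronchial epithelial line, with 1 library per group. The TRPV3-OE library came from BEAS-2B cells that overexpress TRPV3, a calcium-permeable channel, between passage 4 and 8. The parental library, of wild-type genotype, came from cells between passage 20 and 30, so overexpression and passage cannot be told apart. Both lines grew in LHC-9 medium on a coat of collagen and fibronectin and were collected at confluence. How the overexpressing line was made, and whether it is 1 clone, is not given in the sources used here.

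Cadherins are calcium-dependent adhesion proteins that bind like molecules on the next cell and hold epithelial sheets together at adherens junctions. Their tails bind beta-catenin and p120-catenin, and alpha-catenin links beta-catenin to actin. p120-catenin slows the removal of cadherins from the surface, while beta-catenin outside the junction also acts with TCF factors in WNT signalling. E-cadherin and P-cadherin are the usual cadherins of airway epithelium, N-cadherin that of mesenchymal and neural cells, and VE-cadherin that of endothelium.

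Total counts were 17477953 in the TRPV3-OE library and 17450658 in the parental library. TRPV3 itself had 54077 counts in the TRPV3-OE library and 26 in the parental library. A single library stands for each group, so none of the differences could be checked against replicates and p-values are not reported. The 95% intervals are exact and cover counting error alone. Reads copied by PCR carry no molecular identifiers, so they are not independent molecules. Levels are counts per 1000000 (CPM) after TMM scaling, and CPM per kilobase of exon (RPKM) where genes are compared. Measured genes had at least 100 counts summed over both libraries, 11466 in all, and all 7 members passed. A gene was counted as at least 2-fold higher or lower in TRPV3-OE where its interval also lay on that side of 1. Of measured genes 5.31% were higher and 5.35% lower by this rule. Because RNA was taken from whole cultures, fewer cells with a transcript and less of it per cell cannot be told apart.

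The epithelial cadherins CDH1 and CDH3 differed little between the libraries, while CDH2 and CDH5 were much lower in TRPV3-OE. Of the 4 cadherins 2 were at least 2-fold lower and 0 higher, and of the 3 catenins 0 passed in either direction. The median log2 ratio (TRPV3-OE over parental) of the 7 members was −0.09, against −0.03 over all measured genes. Of all measured genes the middle 50% lay between −0.36 and 0.30.

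**Figure D1:**
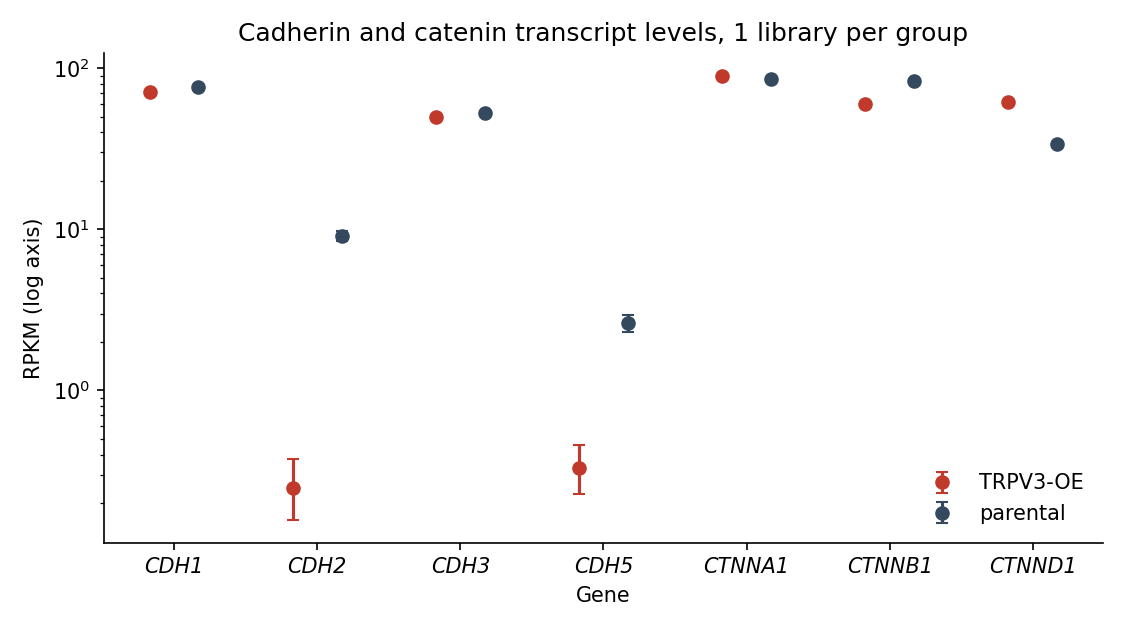
Transcript level of each member in RPKM on a log axis, with points for the TRPV3-OE and parental libraries and bars for exact 95% counting intervals. CDH2 stood at 0.250 RPKM in TRPV3-OE and 9.12 RPKM in parental cells, and CDH5 at 0.329 RPKM in TRPV3-OE and 2.62 RPKM in parental cells, while the other 5 genes lay between 33.9 and 88.9 RPKM in both.

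CDH1 (ENSG00000039068, chromosome 16, 68737225 to 68835548, plus strand, GRCh38) encodes E-cadherin. It had 7875 counts in the TRPV3-OE library and 8063 in the parental library, or 442 CPM (433 to 452) in TRPV3-OE and 471 CPM (461 to 481) in parental cells. The log2 ratio was −0.09 (−0.14 to −0.05), so that CDH1 was 6.06% lower in TRPV3-OE. Per length it stood at 71.6 RPKM in TRPV3-OE and 76.2 RPKM in parental cells, above 95.3% of measured protein-coding genes in both.

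CDH3 (ENSG00000062038, chromosome 16, 68636189 to 68722616, plus strand), which encodes P-cadherin, lies directly before CDH1. It had 5555 counts in the TRPV3-OE library and 5649 in the parental library, or 312 CPM in TRPV3-OE and 330 CPM in parental cells. The log2 ratio of −0.08 (−0.13 to −0.03) was close to that of CDH1, and the intervals overlapped. For every 100 CDH1 transcripts per length there were 69.9 of CDH3 in TRPV3-OE and 69.4 in parental cells. That ratio needs no scaling between libraries, and its log2 change of 0.01 (−0.06 to 0.08) had an interval that held 0.

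CDH1 and CDH3 differed less than most genes around them. Within 3 Mb of the CDH1 start 79 genes were measured, with a median log2 ratio of −0.25, of which 1 was at least 2-fold higher and 3 lower. The median over the 50 genes nearest to CDH1 was −0.28, and CDH1 lay 0.19 above it, as CDH3 lay 0.21 above its own. ZFP90, the measured gene before CDH3, had a log2 ratio of −0.34, and TANGO6, the one after CDH1, a log2 ratio of −0.87. The 510 measured genes of chromosome 16 had a median of −0.34.

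**Figure D2:**
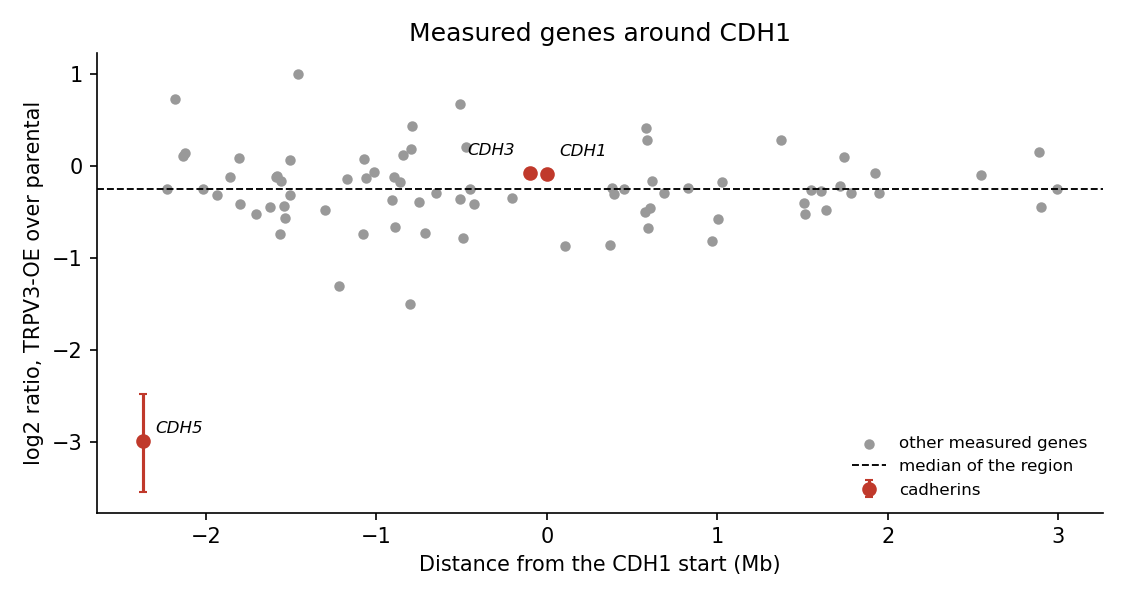
The log2 ratio of each measured gene (TRPV3-OE over parental) against its distance from the CDH1 start in megabases, with the cadherins in red with counting intervals and the regional median of −0.25 dashed. CDH1 and CDH3 sit next to each other just under 0, and CDH5 is the lowest of the 79 genes.

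CDH2 (ENSG00000170558, chromosome 18, 27950966 to 28177446, minus strand) encodes N-cadherin. It had 22 counts in the TRPV3-OE library and 773 in the parental library, or 1.24 CPM (0.774 to 1.87) in TRPV3-OE and 45.1 CPM (42.0 to 48.4) in parental cells. That is 36.5-fold lower in TRPV3-OE (24.0 to 58.6), with a log2 ratio of −5.19 (−5.87 to −4.58). Only 21 of the 11466 measured genes had a lower ratio. By level per length CDH2 lay above 52.8% of measured protein-coding genes in parental cells, and above 0.760% of them in TRPV3-OE. CDH2 reached the minimum of summed counts through its 773 parental counts, since its 22 counts in TRPV3-OE alone fall below that minimum. Genes low in both libraries were left out of the measured set, so the low rank in TRPV3-OE follows in part from that minimum. Neither this rank nor the one by ratio covers the genes left out. The 50 genes nearest to CDH2 had a median log2 ratio of 0.31, and the 171 measured genes of chromosome 18 one of 0.12.

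Of the members, CDH2, CTNNA1 and CTNNB1 have entries in the RefSeq promoter table (GRCh38.p14), which gives 250 bases before to 50 after a start. The first start of CDH2 (chr18:28177081-28177380, minus strand) and the one of CTNNB1 (chr3:41199255-41199554, plus strand) are shown, as a gene that differed widely between libraries and a catenin gene that did not pass 2-fold. Both strands were searched for the E-box CACCTG, which ZEB and SNAI repressors bind and which reads CAGGTG on the opposite strand. The GC box GGGCGG, bound by SP1 and read as CCGCCC on the opposite strand, was searched in the same way. Capitals mark matches.

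CDH2: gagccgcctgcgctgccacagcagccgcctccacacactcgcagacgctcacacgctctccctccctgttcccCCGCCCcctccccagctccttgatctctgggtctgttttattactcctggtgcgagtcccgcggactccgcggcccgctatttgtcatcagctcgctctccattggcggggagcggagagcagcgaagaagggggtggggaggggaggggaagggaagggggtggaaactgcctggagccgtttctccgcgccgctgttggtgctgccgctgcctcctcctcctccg

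CTNNB1: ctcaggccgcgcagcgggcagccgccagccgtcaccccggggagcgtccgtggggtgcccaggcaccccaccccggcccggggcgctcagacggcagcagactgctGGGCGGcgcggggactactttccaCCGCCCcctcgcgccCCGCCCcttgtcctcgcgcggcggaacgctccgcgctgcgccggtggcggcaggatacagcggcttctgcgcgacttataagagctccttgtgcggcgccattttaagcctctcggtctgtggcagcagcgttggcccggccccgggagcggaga

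The CDH2 window holds 1 GC box, 0 E-boxes and 23 CpG dinucleotides, and its bases are 67.0% G or C. The CTNNB1 window holds 3 GC boxes, 0 E-boxes and 39 CpG dinucleotides at 74.0% G or C. In the table as a whole, with 35116 windows, 45.0% hold the GC box and 20.6% the E-box, and the median number of CpG dinucleotides is 14. The match is a description of these letters, and a site outside the window would not be seen.

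By distance of log2 CPM in both libraries, the 3 protein-coding genes most like CDH2 were THBS2, PODXL and L1CAM. THBS2, which encodes the matrix protein thrombospondin 2, had 23 counts in TRPV3-OE and 637 in parental cells. PODXL, a sialomucin gene, had 25 counts in TRPV3-OE and 593 in parental cells. L1CAM, an adhesion molecule gene, had 15 counts in TRPV3-OE and 919 in parental cells. The likeness rests on 2 libraries.

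CDH5 (ENSG00000179776, chromosome 16, 66366622 to 66404786, plus strand) encodes VE-cadherin. It had 35 counts in the TRPV3-OE library and 268 in the parental library, or 1.97 CPM (1.37 to 2.73) in TRPV3-OE and 15.6 CPM (13.8 to 17.6) in parental cells. The level was 7.96-fold lower in TRPV3-OE (5.58 to 11.7), or −2.99 as a log2 ratio (−3.55 to −2.48). The 50 genes closest to CDH5 had a median of −0.25. The measured genes before and after it, GOT2 and TK2, had log2 ratios of −0.44 and −0.25. Of 10 endothelial marker genes 0 were measured, and their summed level was 1.46 CPM in TRPV3-OE and 2.04 CPM in parental cells. KDR, TEK, CLDN5 and EMCN had no count in either library. PECAM1 had 23 counts in TRPV3-OE and 14 in parental cells, and the other 9 markers together had 3 counts in TRPV3-OE and 21 in parental cells. Their part in the CDH5 value was not tested.

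Together the 4 cadherins had 13487 counts in TRPV3-OE and 14753 in parental cells, or 757 CPM (745 to 770) in TRPV3-OE and 861 CPM (848 to 875) in parental cells. CDH1 made up 58.4% of these counts in TRPV3-OE (exact binomial interval 57.6 to 59.2%) and 54.7% in parental cells (53.8 to 55.5%). CDH3 made up 41.2% in TRPV3-OE (40.4 to 42.0%) and 38.3% in parental cells (37.5 to 39.1%). CDH2 made up 0.163% in TRPV3-OE (0.102 to 0.247%), against 5.24% in parental cells (4.89 to 5.61%). CDH5 made up 0.260% in TRPV3-OE (0.181 to 0.361%), against 1.82% in parental cells (1.61 to 2.05%). These intervals cover counting error alone, and the 4 shares are not independent. The shares of CDH1 and CDH3 were larger in TRPV3-OE while their counts were not, since shares sum to the same whole. CDH1 and CDH3 were slightly lower in TRPV3-OE under every scaling run, but lay above the median of their nearest genes. Scaled by total counts the log2 ratios were −0.0363 for CDH1 and −0.0265 for CDH3, and with the median of the 50 nearest genes subtracted they were 0.19 for CDH1 and 0.21 for CDH3.

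**Figure D3:**
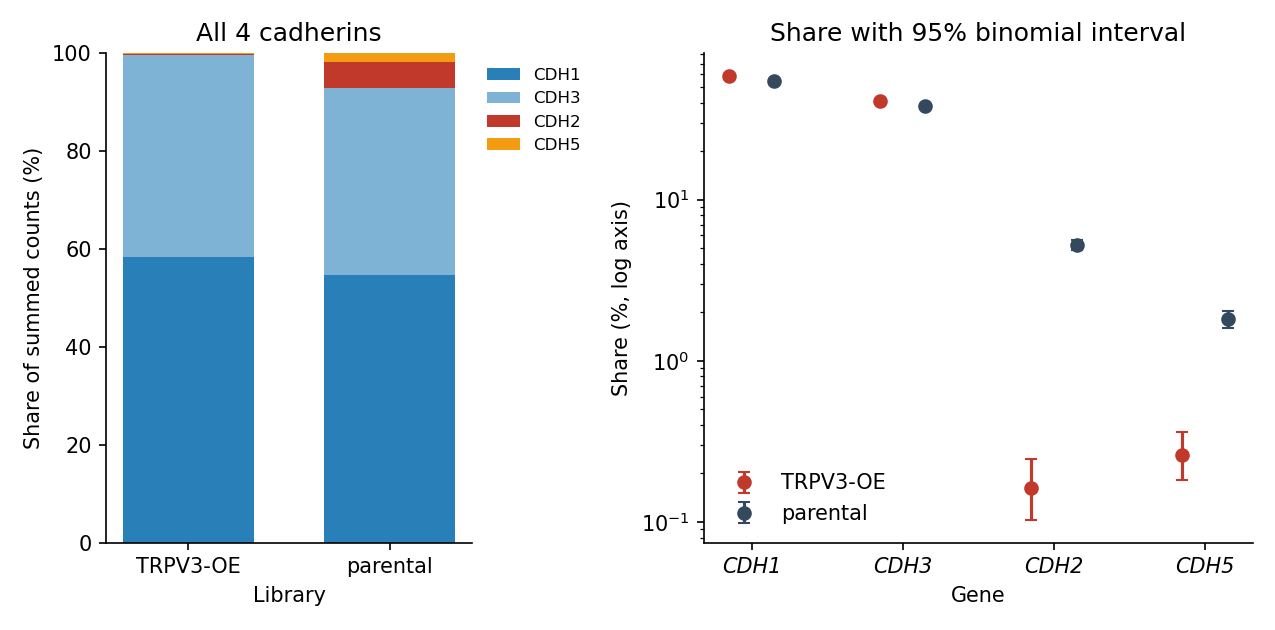
Share of each cadherin in the summed counts of the 4 cadherins, stacked for each library (left) and as points with exact 95% binomial intervals on a log axis (right). CDH2 took 0.163% in TRPV3-OE and 5.24% in parental cells, and CDH1 led in both libraries.

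Divided by exon length the shares were 58.6% CDH1, 40.9% CDH3, 0.204% CDH2 and 0.269% CDH5 in TRPV3-OE. In parental cells they were 54.1% CDH1, 37.6% CDH3, 6.47% CDH2 and 1.86% CDH5. For each CDH1 transcript there were then 0.00349 of CDH2 in TRPV3-OE and 0.120 in parental cells, a log2 change of −5.10 (−5.79 to −4.49). For CDH5 there were 0.00460 in TRPV3-OE and 0.0344 in parental cells. The summed level per length was 122 RPKM in TRPV3-OE and 141 RPKM in parental cells.

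Of the other type I and II cadherin genes only CDH24 was measured. CDH24, a type II cadherin, had 624 counts in TRPV3-OE and 776 in parental cells (log2 ratio −0.37, −0.53 to −0.22), and took 4.41% of all type I and type II cadherin counts in TRPV3-OE and 4.98% in parental cells. Per length it stood at 9.35 RPKM in TRPV3-OE, above CDH2 and CDH5, and at 12.1 RPKM in parental cells, beside 9.12 RPKM for CDH2. CDH4, which encodes R-cadherin, had 0 counts in TRPV3-OE and 31 in parental cells. With 3 counts in place of 0 it was 10.7-fold lower, and the exact interval began at 8.23-fold lower. CDH7 had 10 counts in TRPV3-OE and 12 in parental cells, and the other type I and II cadherin genes at most 8 counts in either library. CDH13, which encodes T-cadherin, an adhesion protein anchored by lipid with no tail for catenins, had 1 count in TRPV3-OE and 404 in parental cells (log2 ratio −8.71, −14.02 to −6.23).

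The catenins differed from each other in direction. CTNNA1 (ENSG00000044115, chromosome 5, 138610967 to 138935034, plus strand), which encodes alpha-E-catenin, had 13985 counts in TRPV3-OE and 13053 in parental cells. That is 785 CPM (772 to 798) in TRPV3-OE and 762 CPM (749 to 775) in parental cells, a log2 ratio of 0.04 (0.01 to 0.08). CTNNA1 was the highest of the 7 members per length, at 88.9 RPKM in TRPV3-OE and 86.3 RPKM in parental cells.

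CTNNB1 (ENSG00000168036, chromosome 3, 41194837 to 41260096, plus strand), which encodes beta-catenin, was lower in TRPV3-OE but did not pass 2-fold. It had 7088 counts in TRPV3-OE and 9396 in parental cells, or 398 CPM (389 to 407) in TRPV3-OE and 549 CPM (538 to 560) in parental cells. The log2 ratio was −0.46 (−0.51 to −0.42), a level 27.4% lower in TRPV3-OE, and 19.5% of measured genes had a lower ratio. Its 50 nearest genes had a median of −0.14.

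CTNND1 (ENSG00000198561, chromosome 11, 57753243 to 57819546, plus strand), which encodes p120-catenin, went the other way. It had 9730 counts in TRPV3-OE and 5107 in parental cells, or 546 CPM (536 to 557) in TRPV3-OE and 298 CPM (290 to 306) in parental cells. The level was 1.83-fold higher in TRPV3-OE (1.77 to 1.90), with a log2 ratio of 0.87 (0.82 to 0.92), below the 2-fold limit. It lies where genes tended to be lower, with a median of −0.17 over the 50 nearest genes and of −0.25 over the 642 measured genes of chromosome 11, and stood 1.04 above the nearest genes. Of its exon bases 4.64% are shared with 2 other annotated genes on the same strand, both with 0 counts in both libraries, and reads within them were left out.

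**Figure D4:**
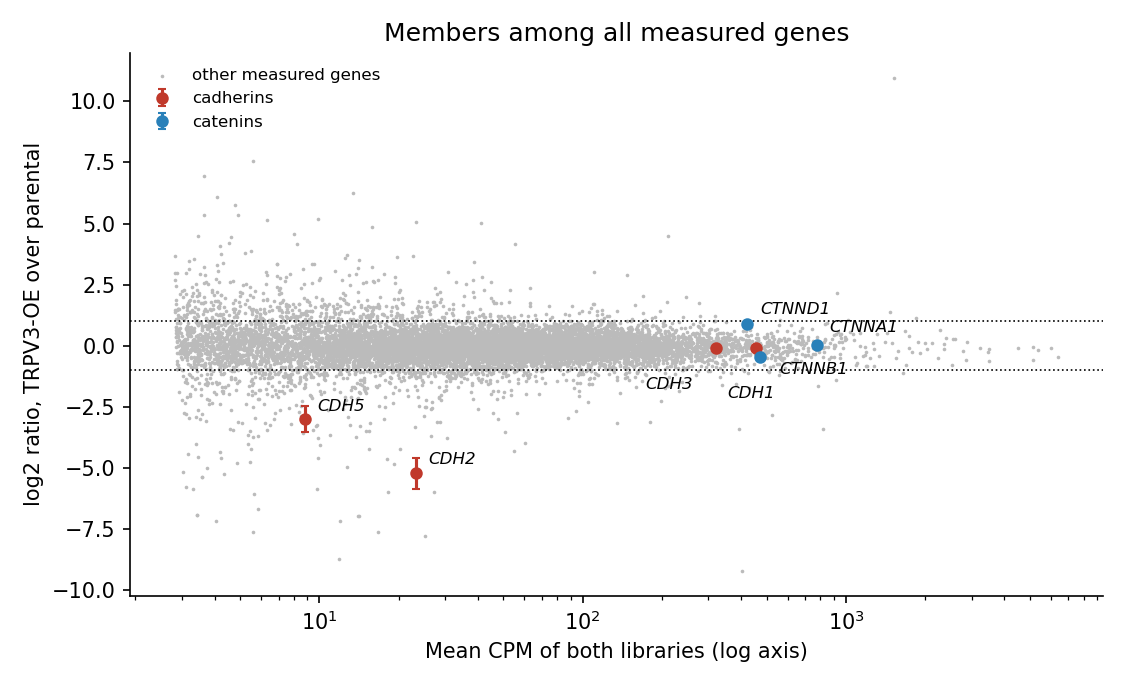
The log2 ratio (TRPV3-OE over parental) of each measured gene against its mean CPM on a log axis, with the cadherins in red, the catenins in blue, counting intervals as bars and 2-fold limits dotted. CDH2 at −5.19 and CDH5 at −2.99 lie below the limits, and CTNND1 at 0.87 lies just inside the upper one.

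Ratios between catenins within a library do not depend on the scaling. CTNND1 stood at 1.03 transcripts per length for each of CTNNB1 in TRPV3-OE and 0.409 in parental cells, a log2 change of 1.34 (1.27 to 1.40). For each CTNNA1 transcript there were 0.677 of CTNNB1 in TRPV3-OE and 0.961 in parental cells (log2 change −0.51, −0.56 to −0.45). Of the summed counts of the 3 catenins CTNND1 made up 31.6% in TRPV3-OE and 18.5% in parental cells, and CTNNB1 23.0% in TRPV3-OE and 34.1% in parental cells. CTNNA1 made up 45.4% in TRPV3-OE and 47.4% in parental cells. Per length CTNND1 and CTNNB1 stood close together in TRPV3-OE, at 62.1 and 60.2 RPKM, and apart in parental cells, at 33.9 and 82.9 RPKM.

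JUP, which encodes plakoglobin, a close relative of beta-catenin that binds the same cadherin tails and also desmosomes, had 6337 counts in TRPV3-OE and 4237 in parental cells. Its log2 ratio was 0.52 (0.47 to 0.58), with a level of 72.0 RPKM in TRPV3-OE and 50.1 RPKM in parental cells. For each CTNNB1 transcript there were 1.20 of JUP in TRPV3-OE and 0.603 in parental cells. The sum of both was 132 RPKM in TRPV3-OE and 133 RPKM in parental cells. By counts that sum was 754 CPM in TRPV3-OE and 796 CPM in parental cells (log2 ratio −0.08, −0.11 to −0.04). For each transcript of the 4 cadherins per length there were 1.08 of CTNNB1 and JUP in TRPV3-OE and 0.944 in parental cells. The 3 catenins together stood at 1.73 per cadherin transcript in TRPV3-OE and 1.44 in parental cells, with a log2 change by counts of 0.29 (0.25 to 0.33). Of the other catenin genes, CTNNAL1, an alpha-catenin relative, had a log2 ratio of −0.56 and PKP4, a p120 relative, one of −0.26. CTNNA2, CTNNA3 and CTNND2 had no count in either library.

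Repressors of CDH1 and epithelial transcription and splicing factors were taken as lists, chosen with earlier results of these data known. Of 6 measured repressors of CDH1, 3 were at least 2-fold lower in TRPV3-OE and 0 higher (median log2 ratio −0.81, range −6.91 to 0.30). Over all measured genes 5.35% were lower and 5.31% higher. With 6 genes an order-statistic interval of that median is the whole range, so it adds nothing to it. With a minimum of 20 summed counts SNAI1 entered, with 45 counts in TRPV3-OE and 21 in parental cells, and the median was −0.25. ZEB1, a zinc finger repressor, had 1 count in TRPV3-OE and 116 in parental cells (log2 ratio −6.91, −12.23 to −4.41). TWIST2 had 18 counts in TRPV3-OE and 156 in parental cells, and SNAI2, which encodes SLUG, 411 in TRPV3-OE and 1030 in parental cells. TCF3, TWIST1 and TCF4 did not pass, with log2 ratios of −0.25, −0.23 and 0.30. The median stands beside −0.03 over all measured genes.

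Of 9 measured epithelial transcription and splicing factors, 4 were at least 2-fold higher in TRPV3-OE and 0 lower (median 0.85, range −0.94 to 1.84). The order-statistic interval of that median, −0.53 to 1.63, held 0. The shares over all measured genes were 5.31% higher and 5.35% lower. GRHL1, a grainyhead factor, had 666 counts in TRPV3-OE and 179 in parental cells (3.58-fold higher). ELF3, an ETS factor of epithelia, was 3.09-fold and OVOL2, a repressor of mesenchymal genes, 2.55-fold higher. OVOL2 stood at a log2 ratio of 1.35, and the median of the 50 genes around it was 0.60. EHF, KLF5 and the splicing factor gene ESRP2, of the same list, had log2 ratios of −0.94, −0.53 and −0.36.

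Most genes around the complex did not pass 2-fold, as was so for all measured genes, of which 10.7% passed in either direction. All 17 actin linkers were measured and 0 passed (median −0.08), with EVL at −0.80, PDLIM1 at −0.76 and ACTN1, an alpha-actinin gene, at −0.75. EVL lies where the 50 nearest genes had a median of −0.61. Nectins, the other adhesion molecules of the junction, had NECTIN4 higher (106 counts in TRPV3-OE and 43 in parental cells) and NECTIN3 lower (141 counts in TRPV3-OE and 356 in parental cells), and NECTIN2 at −0.24.

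Of 16 genes of cadherin shedding and endocytosis 1 was higher and 1 lower (median 0.00). AP1M2, the epithelial adaptor subunit that sorts proteins to the basolateral side, had 3102 counts in TRPV3-OE and 1088 in parental cells (2.74-fold higher). EXOC2, an exocyst subunit gene, had a log2 ratio of −1.04, beside −0.84 for its 50 nearest genes, and EXOC3 one of 0.67, beside 0.49. Of 15 kinases and phosphatases 0 were higher and 1 lower (median −0.01). That was FYN, a SRC-family kinase gene (41 counts in TRPV3-OE and 89 in parental cells), while the receptor phosphatase genes PTPRB and PTPRF had log2 ratios of −0.79 and −0.75.

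For beta-catenin away from the junction, 0 of 9 measured genes of the destruction complex passed in either direction (median −0.17). BTRC, the ubiquitin ligase subunit that recognises beta-catenin, had a log2 ratio of 0.70. AXIN1 and AMER1, scaffolds of the complex, had ratios of −0.67 and −0.66, next to medians of −0.66 and −0.62 over their 50 nearest genes. Of 11 nuclear partners 2 were lower and 0 higher (median −0.03). TCF7L1, a mostly repressing TCF factor, had 74 counts in TRPV3-OE and 720 in parental cells (10.1-fold lower), TBL1X had 53 counts in TRPV3-OE and 242 in parental cells (4.75-fold lower) and TCF7 a log2 ratio of 0.63. Of 7 measured WNT target genes 2 were lower and 0 higher (median −0.20), beside 5.35% lower and 5.31% higher over all measured genes. Of the same list, the feedback genes NKD1 (higher) and AXIN2 (lower) fell below 100 summed counts, so both counts depend on that minimum. The hyaluronan receptor gene CD44 was 2.77-fold lower, with a log2 ratio of −1.47 beside −0.72 for its 50 nearest genes. RNF43, a ligase that removes WNT receptors, was 2.05-fold lower, and the WNT inhibitor gene DKK1 had a log2 ratio of −0.90.

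**Figure D5:**
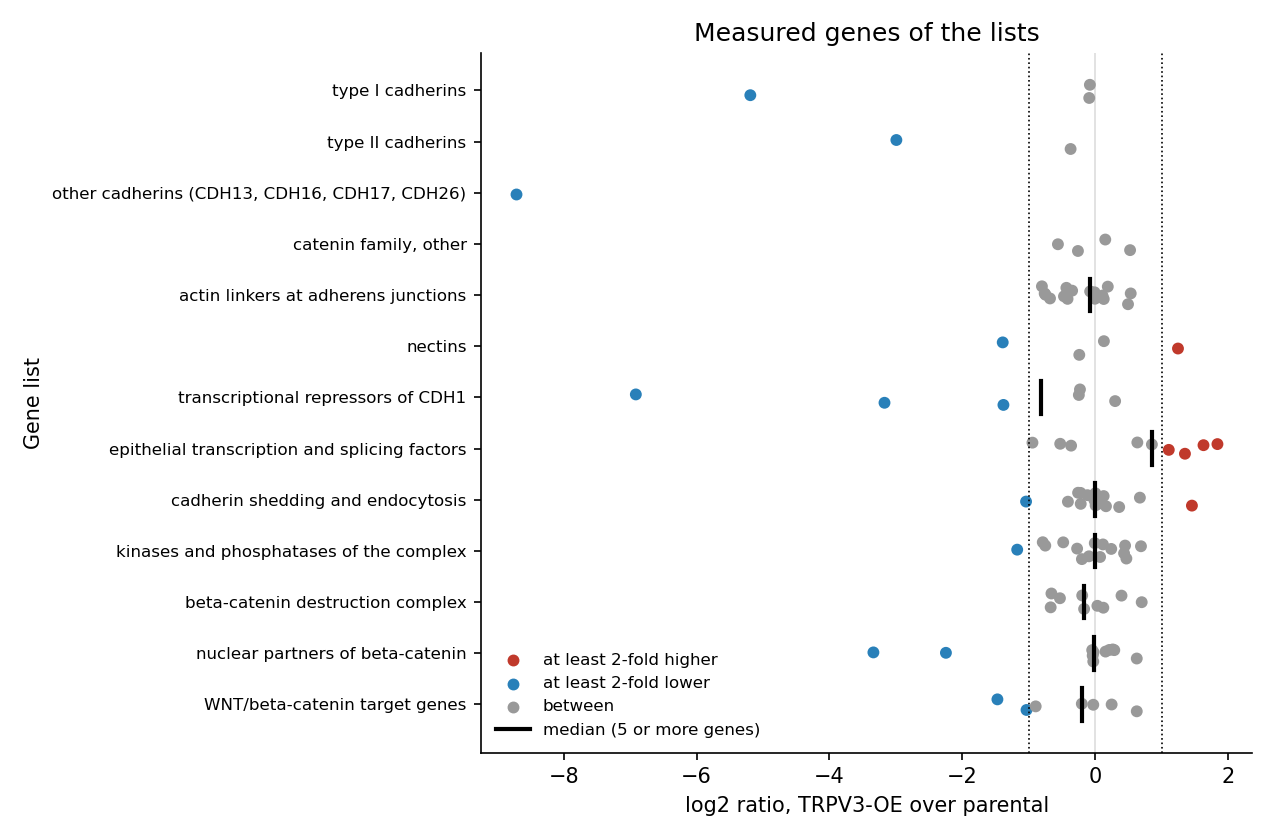
The log2 ratio (TRPV3-OE over parental) of every measured gene in each list described, coloured by whether it was at least 2-fold higher, at least 2-fold lower or between, with a bar for the median where 5 or more genes were measured. Repressors of CDH1 reach −6.91, epithelial factors lie up to 1.84, and all 17 actin linkers lie between the dotted 2-fold limits.

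Marker genes were counted beside these results. Of 11 bronchial epithelial markers 10 were measured, 2 were higher and 1 lower, and their summed level was 7500 CPM in TRPV3-OE and 7993 CPM in parental cells. The median log2 ratio of the measured ones was 0.37 (range −1.03 to 2.19), with CLDN4 at 2.19 and CLDN7 at 1.69 the higher ones and KRT17 at −1.03 the lower one. KRT14, below the minimum, had 0 counts in TRPV3-OE and 15 in parental cells. Of 9 fibroblast markers 2 were measured, FBLN1 and COL1A1, with a summed list level of 124 CPM in TRPV3-OE and 98.2 CPM in parental cells, and COL3A1 and LUM had no count in either library. Of 7 immune markers only CD14 was measured (460 counts in TRPV3-OE and 72 in parental cells), and PTPRC, which all leukocytes carry, had no count. Of 8 genes listed for neural and muscle cells, which also use N-cadherin, SOX2 alone was measured, with 129 counts in TRPV3-OE and 1 in parental cells. DES and MYH7 had none, and SOX2 by itself does not identify such cells. The part of these cell types in the cadherin values was not tested.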

How the data were processed

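The authors deposited unnormalised read counts for each gene, made with featureCounts 1.5.0-p3 on the reverse-strand setting with Ensembl 87 gene models on GRCh38, per the file headers. No option for multi-mapping reads or for reads over several genes is shown there, so such reads were left out by default. STAR and DESeq2 are named per the submitters' processing notes. The deposited exon length per gene, per the file headers, was used for RPKM.

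From these, TMM factors (1.02 for TRPV3-OE and 0.981 for parental) were computed with edgeR 4.0.16 in R 4.3.3. No model was fitted. Levels carry exact Poisson intervals, shares and ratios exact binomial (Clopper-Pearson) intervals, and changes of within-library ratios conditional odds-ratio intervals. In ratios 3 counts stood in for 0, and no ratio was given where both counts were at most 3. Depth was about equal, and 1 count equals 0.0562 CPM in TRPV3-OE and 0.0584 CPM in parental cells. The calculation was tested on counts simulated with Poisson error alone, which checks the arithmetic and not the spread between cultures.

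A table of gene names gave symbols for 56948 IDs, and GENCODE 29 gave biotypes. Groups came from the genotype labels. The members and lists were chosen with earlier results of these data known. Of the lists, 1 is not reported here. Genes named were TRPV3, the members, up to 3 measured genes per list with the largest absolute log2 ratio, cadherins with at least 20 summed counts, the 3 genes nearest to CDH2 and the neighbours of CDH1, CDH3 and CDH5. TWIST1, TCF3, TCF4, EHF, KLF5, ESRP2, SNAI1, the catenin genes without counts and the markers were named after their values were seen. Alternatives were other scalings (DESeq2 1.42.0 size factors, total counts, upper quartile), a prior count of 5, other minimums and limits, protein-coding genes alone, subtraction of the median of the 50 nearest measured genes, division by length and other denominators for shares. Intervals were computed with scipy 1.17.1 and figures drawn with matplotlib 3.10.9 in Python 3.11.15, with numpy 2.4.6 and pandas 2.3.3 for tables.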

Additional observations from a re-analysis of the deposited data

How the results depend on the processing

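No paired analysis was possible because there was a single library on each side, which also leaves no replicate to omit. Directions of CDH2, CDH5, CTNNB1 and CTNND1 held in every setting run. Other scalings moved the median of measured genes by at most 0.06. Scaling by total counts and by upper quartile gave log2 ratios of −0.0363 and −0.0320 for CDH1, −0.0265 and −0.0222 for CDH3, 0.0972 and 0.102 for CTNNA1 (0.0859 with DESeq2 size factors), −0.41 and −0.40 for CTNNB1, and 0.93 and 0.93 for CTNND1. With the median of the 50 nearest genes subtracted they were 0.19 for CDH1, 0.21 for CDH3, −0.12 for CTNNA1, −0.32 for CTNNB1 and 1.04 for CTNND1, so the first 3 changed sign and CTNND1 passed 2-fold. Genes past the 2-fold limit numbered 609 (higher) and 614 (lower), and 1314 and 1121 with a minimum of 1 count, 1094 and 942 with 20, 245 and 323 with 500, 1455 and 1627 at a limit of 1.5-fold, and 151 and 159 at 4-fold, as more or fewer genes qualify by construction. With all type I and II cadherins as denominator CDH1 made up 55.7% in TRPV3-OE and 51.7% in parental cells, and CDH3 39.3% in TRPV3-OE and 36.2% in parental cells. Without CDH5 the parental share of CDH1 was 55.7%, and per length the parental share of CDH2 was 6.47%. Of 140 values under other settings for the members, shares, lists and gene counts, 108 stayed within their interval or within 1.5 times the count, as did 137 of 148 for other named genes. For list medians that interval came from the ranks of the listed genes, and it is no measure of spread between cultures. For a gene such as CDH5 in TRPV3-OE, 35 counts leave a counting interval of 1.37 to 2.73 CPM on its level. That interval is no detection limit for a difference between libraries. With 1 library per group, differences of any size could not be checked against the spread between cultures.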

Other observations

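Some genes of the lists were below 100 summed counts and are given as values, chosen after they were seen. NKD1, a WNT feedback gene, had 76 counts in TRPV3-OE and 10 in parental cells (log2 ratio 2.87, 1.91 to 3.99), while AXIN2, another feedback gene of the same pathway, had 1 count in TRPV3-OE and 17 in parental cells (−4.14, −9.53 to −1.47). OVOL1, the relative of OVOL2, had 64 counts in TRPV3-OE and 8 in parental cells (log2 ratio 2.94, 1.88 to 4.22). SNAI1, which encodes SNAIL, had 45 counts in TRPV3-OE and 21 in parental cells (log2 ratio 1.04, 0.27 to 1.87), the opposite direction to SNAI2 at −1.38. CDH11, a cadherin of mesenchymal cells, had 0 counts in TRPV3-OE and 8 in parental cells, and CDH6 had 0 in TRPV3-OE and 4 in parental cells.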
